A study of Mus musculus with 8 samples.

Results

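The keratin gene family was taken as every row of the 8 count files whose symbol is Krt followed by digits only, which gave 48 of 23282 gene rows. Counts came from 3' end RNA sequencing (QuantSeq, which reads a short stretch next to the poly(A) tail) of liver and uterus from female CD-1 mice, an outbred stock. All animals, controls included, had their ovaries removed at 6 weeks of age, which takes away the main source of estrogen, and rested for 1 week. Oral dosing then went on daily for 7 days. The BPA group received bisphenol A, a monomer of plastics with weak estrogenic activity, at 200 mg/kg/day. The KRG group received Korean red ginseng, a steamed root preparation, at 1.2 g/kg/day, the combined group received both agents at these doses, and the control group received neither. Each tissue has 1 library per treatment, 8 in all, and it is not stated how many animals went into a library or whether liver and uterus were paired within animals.

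Keratins are the intermediate filament proteins of epithelial cells, and they assemble as pairs of a type I (acidic) and a type II (basic) chain. Simple, single-layered epithelia, including hepatocytes, bile duct and uterine epithelium, carry Krt8 and Krt18, with Krt19 and Krt7 added in ducts and glands. Basal cells of stratified epithelia carry Krt5 and Krt14, often with Krt15, and Krt20 is known from the umbrella cells of the urothelium and from gut epithelium.

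Library totals ran from 12372073 to 15290950 counts, and values below are CPM, counts scaled to a common total per library, in the order control, BPA, KRG and combined. A count of 0 allows up to 3 counts, or 0.196 to 0.242 CPM depending on the library, for counting error only. Summed markers set the tissues apart by hepatocyte genes, 32890 to 35820 CPM in the livers against 667, 80.9, 1417 and 67.9 CPM in the uteri. Among the uteri, the control and KRG libraries had the higher sums of hepatocyte genes, and where these counts came from was not tested. The livers differed in acinar pancreas genes (1.64, 1037, 8.43 and 5.90 CPM) and in skeletal muscle genes (189, 2.93, 521 and 1.70 CPM). The combined uterus stood out in skeletal muscle genes (112, 218, 91.3 and 1743 CPM), and both libraries given BPA stood out in urothelial genes (348, 6026, 74.0 and 10430 CPM). In whole-tissue RNA, fewer cells of a type and less RNA per cell cannot be told apart.

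Of the 48 keratins, 26 are type I and 22 type II by the family's nomenclature. GENCODE M21, on the mm10 build that the submitters' processing notes name, lists 47 of them, 25 on chromosome 11 and 22 on chromosome 15. Krt18 is the 1 type I gene on chromosome 15, where its gene body (chr15:102028180-102032027, plus strand) lies 23698 bp from that of its partner Krt8 (chr15:101996698-102004482, minus strand). The basal genes Krt15 (chr11:100131758-100135928), Krt14 (chr11:100203162-100207548) and Krt17 (chr11:100256217-100261029) lie with Krt19 (chr11:100140810-100148665) within 129272 bp of each other. The annotation has another gene overlapping 9 keratins, none of which has a row of its own in the files, and the use of strand in counting is not given in the sources used here.

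Krt7 and Krt20 were the keratins called higher with BPA in uterus, and the 250 bases before each RefSeq start site (GRCm38.p6) are shown for that reason, 5′ to 3′ on the gene's own strand. Capitals mark matches to 5 motifs searched on both strands: the TATA box TATAAA, the GC box GGGCGG, the AP-1 site TGANTCA, the GATA site AGATAA and the palindromic estrogen response element.
Krt20: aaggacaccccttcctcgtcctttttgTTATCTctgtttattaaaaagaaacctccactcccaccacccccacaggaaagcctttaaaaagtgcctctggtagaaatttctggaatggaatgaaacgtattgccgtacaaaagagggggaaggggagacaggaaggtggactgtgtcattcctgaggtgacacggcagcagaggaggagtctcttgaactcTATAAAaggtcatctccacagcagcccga
Krt7: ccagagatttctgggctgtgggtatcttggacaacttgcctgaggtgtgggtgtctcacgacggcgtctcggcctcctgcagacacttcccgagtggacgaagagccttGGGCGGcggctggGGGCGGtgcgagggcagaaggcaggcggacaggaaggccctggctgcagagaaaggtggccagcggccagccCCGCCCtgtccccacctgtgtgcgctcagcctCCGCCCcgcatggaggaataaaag
The Krt20 stretch (chr11:99438154-99438403, minus strand) holds a TATA box 29 bases and a GATA site 223 bases before the start. The Krt7 stretch (chr15:101412153-101412402, plus strand) holds GC boxes 141, 128, 56 and 24 bases before the RefSeq start, which itself lies inside the longer GENCODE gene (chr15:101411043-101430313). The set of RefSeq start sites used here covered 34 keratins, 35 sites in all, and left out Krt4, Krt15, Krt17 and Krt19 among others. A TATA box lay within 250 bases of 16 of those sites (45.7%), against 12.4% of all 32851 promoters, and a GATA site at 9 (25.7%, against 9.99%). A GC box lay at 2 (5.71%, against 32.7%) and an AP-1 site at 2 (5.71%, against 6.75%). No keratin stretch held the estrogen response element, a match found in 0.0639% of all promoters. These are matches of letters, and binding was not measured.

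In uterus 35 of the 48 keratins had at least 1 count, and in liver 16 did. Counts were found in uterus and in no liver for 20 members, in liver alone for 1, and in neither tissue for 12. Means reached 1 CPM for 16 keratins in uterus and for 4 in liver (Krt8, Krt10, Krt18 and Krt19, all among the 16), and these 16 are described by name. The other 32 stayed below 1 CPM in both tissues, with 1.39 CPM as their highest value in any uterus. The threshold fell between Krt13 (mean of 1.02 CPM in uterus) and Krt36 (0.883 CPM). The 32 include the hair and inner root sheath keratins, of which 10 of 22 had any count in uterus. Krt6a, Krt6b, Krt33a and Krt33b carry letters and lie outside the family as defined here.

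**Figure D1:**
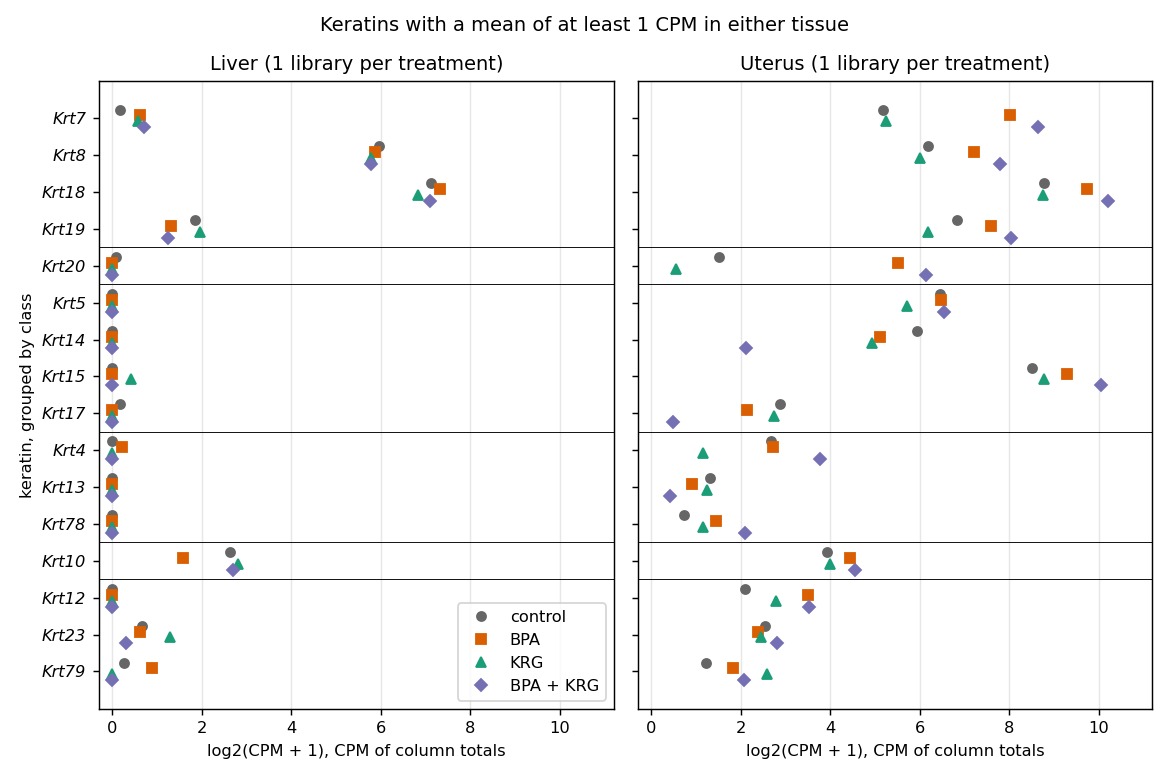
Level of the 16 named keratins on the log2(CPM + 1) scale, 1 point per library, liver in the left panel and uterus in the right, with horizontal lines between classes and a marker for each treatment. Krt8 and Krt18 are the only keratins above 10 CPM in liver, and Krt15 (up to 1063 CPM) and Krt18 (up to 1186 CPM) are the highest in uterus.

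Summed over the family, keratins made up 207, 221, 179 and 197 CPM in liver and 1214, 2292, 1170 and 3357 CPM in uterus. Liver keratin was nearly all of the simple class (Krt7, Krt8, Krt18 and Krt19), 95.5% to 98.3% of keratin counts. In uterus the simple class gave 659, 1446, 604 and 2067 CPM and the basal squamous class (Krt5, Krt14, Krt15 and Krt17) 519, 752, 527 and 1159 CPM. Both uteri given BPA lay above both without it in either class. The basal sum was mostly Krt15 (366, 627, 440 and 1063 CPM), so its order is that of Krt15. Krt14 and Krt17 of the same class were lowest in the combined library. The simple share of uterine keratin counts was 54.3%, 63.1%, 51.6% and 61.6%, and the basal share 42.7%, 32.8%, 45.1% and 34.5%.

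**Figure D2:**
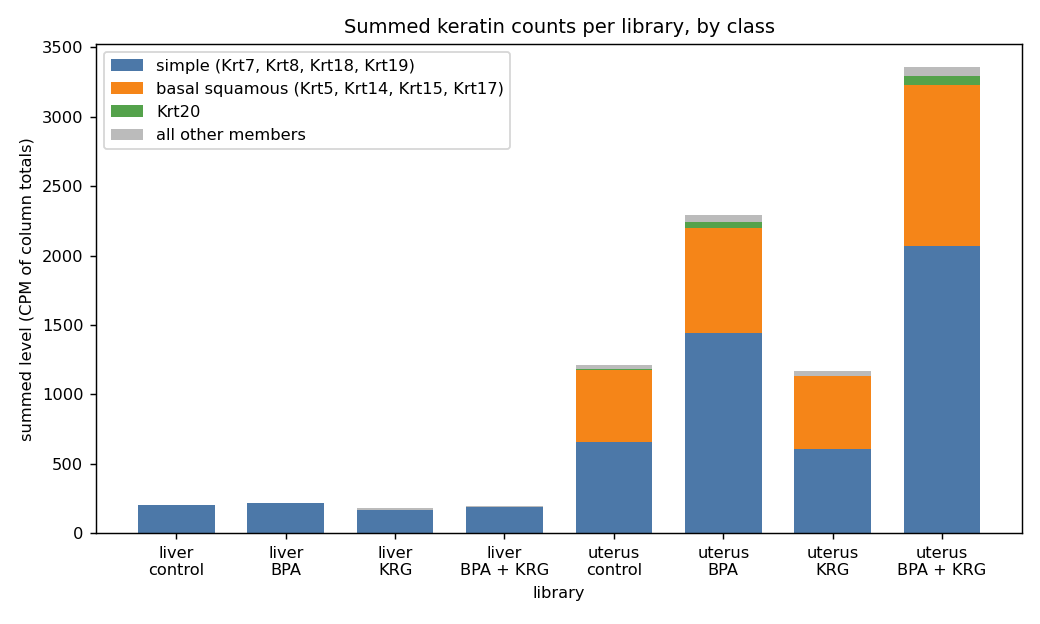
Summed keratin level (CPM) in each of the 8 libraries, 1 stacked bar per library, with the simple class, the basal squamous class, Krt20 and all other members in separate colours. The uterine bars of BPA (2292 CPM in all) and of the combined treatment (3357 CPM) are the tallest, and the liver bars are almost entirely of the simple class.

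Type I and type II chains were not counted in equal amounts. The ratio of summed type I to type II counts was 2.40, 2.73, 2.26 and 2.61 in liver and 5.03, 3.54, 6.26 and 3.58 in uterus. Krt18 stood 2.27, 2.75, 2.08 and 2.51 times above its partner Krt8 in liver and 6.17, 5.72, 6.79 and 5.35 times above it in uterus, with no overlap between tissues. These are ratios of 3' end counts, which need no length correction but do depend on how well each gene's 3' end was captured, which was not tested.

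The first comparison asked which keratins set uterus apart from liver. Of the 14 keratins whose mean over the 8 libraries reached 1 CPM, 12 were higher in uterus and 0 lower by edgeR's quasi-likelihood test with treatment as a term (Benjamini-Hochberg adjusted p under 0.05), where 38.1% of 13790 genes were higher and 30.6% lower. This count is no support by itself, since 10 of the 14 had a liver mean under 1 CPM and passed the filter through the uterus libraries. Of the 4 keratins present in both tissues, 3 were higher.

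Krt8 stood at 60.7, 57.5, 54.3 and 53.9 CPM in liver and 71.4, 148, 63.6 and 222 CPM in uterus. Its log2 difference in edgeR's test was 0.017 (SE 0.34, adjusted p = 0.968), with TMM scaling (edgeR's trimmed mean of M values). Scaled by column totals instead, Krt8 was higher in uterus (log2 difference 0.96, edgeR adjusted p = 0.041) and all 14 keratins were called higher. Of all genes called, 80.9% were then higher in uterus, against 55.5% with TMM. The median gene moved from 0.18 to 1.12 in log2 between these scalings, so the place of Krt8 between the tissues depends on the scaling. The 12 keratins first called higher in uterus were called under both.

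Krt18, the type I partner of Krt8, stood at 138, 158, 113 and 135 CPM in liver and 440.0, 848, 432 and 1186 CPM in uterus. Its log2 difference was 1.34 (SE 0.30, edgeR adjusted p = 0.0074), and the groups did not overlap. Krt19, a small type I keratin of ducts and glands, gave 2.62, 1.46, 2.88 and 1.37 CPM in liver and 113, 192, 71.8 and 261 CPM in uterus. It had the widest gap of the 4 shared keratins, a log2 difference of 5.15 (SE 0.53, edgeR adjusted p = 0.00032), or 76.3-fold on summed counts (95% counting interval 63.6 to 92.3). Krt10, the type I keratin of suprabasal epidermis, gave 5.23, 2.00, 5.96 and 5.50 CPM in liver and 14.3, 20.6, 15.1 and 22.6 CPM in uterus. The log2 difference of Krt10 was 1.07 (SE 0.33, edgeR adjusted p = 0.026), a call lost without the BPA or the combined liver or without the combined uterus.

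Krt7, a type II keratin of ducts, glands and urothelium, was at 0.131, 0.540, 0.480 and 0.647 CPM in the livers and at 35.0, 257, 37.2 and 398 CPM in the uteri. It was 435-fold higher in uterus on summed counts (292 to 679). Krt20 had 1 count in the 4 livers together, in the control, against 1.87, 44.9, 0.462 and 69.2 CPM in uterus. Most of the uterine sum of Krt20 came from the 2 libraries given BPA.

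The basal class was almost absent from liver. Krt5 and Krt14, the defining pair of basal stratified cells, had 0 counts in all 4 livers and were at least 1476-fold and 573-fold higher in uterus against 3 counts over the liver group. Krt15, the most abundant basal keratin of the uterus, had 5 liver counts, all in the KRG library, and was 7033-fold higher in uterus (3013 to 21660). Krt12, a keratin known from corneal epithelium, Krt13 and Krt78 were also at 0 in all livers and at least 141-fold, 18.4-fold and 32.9-fold higher in uterus. Krt13 and Krt78 were below the filter of the tissue test.

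On CPM of column totals, all 14 tested keratins had their 4 uteri above their 4 livers, as did 62.6% of all genes tested. This order is no support by itself either, since 10 of the 14 passed the filter through the uterus libraries. Krt23, a type I keratin found in several epithelia, had a log2 difference of 1.98 (SE 0.52, edgeR adjusted p = 0.0147), and this call was lost without the control liver or the control uterus. Krt79, a type II keratin of hair follicle and sebaceous ducts, gave 0.196, 0.848, 0 and 0 CPM in liver and 1.34, 2.55, 5.004 and 3.24 CPM in uterus, with a log2 difference of 2.82 that did not pass (edgeR adjusted p = 0.061).

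The second comparison asked what BPA did to keratins in uterus, with 2 libraries given BPA against 2 without it and KRG as a term, which leaves 1 residual degree of freedom. Of 16 keratins tested, Krt7 and Krt20 were higher with BPA and 0 were lower by edgeR's test, where 1.08% of 14166 genes were higher and 1.28% lower. At an unadjusted p under 0.05, 7 keratins were higher and 2 lower, among 1963 of the 14166 genes in either direction. DESeq2's Wald test called 6 keratins higher (Krt7, Krt8, Krt15, Krt18, Krt19 and Krt20) and 1 lower (Krt14), among 369 genes higher and 269 lower. The fitted log2 difference was above 0 for 13 of the 16 and below 0 for 3, with a median of 1.05 against -0.015 over all genes tested. Krt78 passed the filter on mean CPM only through the libraries given BPA and Krt13 only through those without it. On CPM, both libraries given BPA lay above both without it for 11 keratins (Krt4, Krt5, Krt7, Krt8, Krt10, Krt12, Krt15, Krt18, Krt19, Krt20 and Krt78), an order found for 27.5% of all genes. They lay below for 2, Krt13 and Krt17, an order found for 17.9% of all genes. Between BPA and control, the counting intervals of Krt4 (1.03-fold, 0.737 to 1.44) and Krt5 (1.03-fold, 0.947 to 1.11) include 1. So does that of Krt13 (0.585-fold, 0.261 to 1.26). These orders were taken on column totals and not repeated with TMM scaling.

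**Figure D3:**
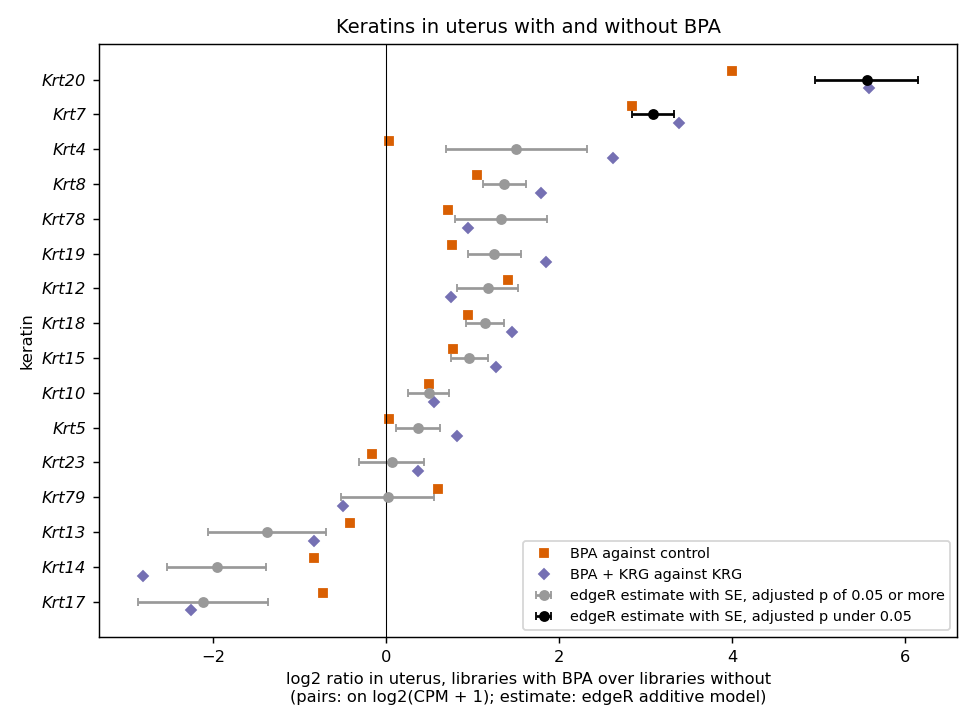
Log2 ratio with BPA in uterus for the 16 tested keratins, ordered by edgeR's additive estimate (circles with bars of 1 SE, black where the adjusted p was under 0.05), with the ratio of each pair of libraries on the log2(CPM + 1) scale as squares (BPA against control) and diamonds (combined against KRG). Krt20 (5.55) and Krt7 (3.08) lie farthest to the right and passed the adjusted threshold, and Krt13, Krt14 and Krt17 lie left of 0 and did not.

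Krt20 gave 1.87, 44.9, 0.462 and 69.2 CPM, high in both uteri given BPA and low in both without it. BPA against control was 24.03-fold (95% counting interval 16.1 to 37.4), and the combined library against KRG was 149.8-fold (68.6 to 409). The fitted log2 difference was 5.55 (SE 0.60, edgeR adjusted p = 0.0198), and the highest adjusted p over the 9 alternatives of this test was 0.0375.

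Krt7 gave 35.0, 257, 37.2 and 398 CPM, again with no overlap. The folds were 7.34 (6.67 to 8.10) for BPA against control and 10.7 (9.75 to 11.8) for combined against KRG. The fitted log2 difference of Krt7 was 3.08 (SE 0.24, edgeR adjusted p = 0.0094), with 0.0291 as the highest adjusted p over the 9 alternatives.

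The other simple keratins had smaller differences in the same direction. Krt8 gave 71.4, 148, 63.6 and 222 CPM, 2.08-fold (1.92 to 2.25) for BPA against control and 3.49-fold (3.23 to 3.77) for combined against KRG. Krt18 gave 440.0, 848, 432 and 1186 CPM, 1.93-fold and 2.75-fold in the same pairs. Krt19 gave 113, 192, 71.8 and 261 CPM, 1.70-fold and 3.64-fold. In each of these genes the combined library was the highest of the 4. None of the 3 passed edgeR's adjusted threshold: the log2 differences were 1.37 (SE 0.25, adjusted p = 0.0692) for Krt8, 1.14 (SE 0.22, adjusted p = 0.0792) for Krt18 and 1.25 (SE 0.30, adjusted p = 0.145) for Krt19. DESeq2's test called all 3. Over the 9 alternatives the log2 difference of Krt8 ran from 1.04 to 1.70. For Krt18 it ran from 0.86 to 1.42 and for Krt19 from 0.97 to 1.56.

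The basal keratins did not all differ in the same direction. Krt15, a type I keratin of basal and hair follicle stem cells, gave 366, 627, 439.9 and 1063 CPM, with a log2 difference of 0.96 (SE 0.22, edgeR adjusted p = 0.121). Krt5 gave 86.1, 88.4, 51.9 and 92.0 CPM and a log2 difference of 0.37 (edgeR adjusted p = 0.606). Krt14, which pairs with Krt5 in basal cells, gave 60.6, 33.6, 29.8 and 3.38 CPM, and Krt17, induced in wounded and activated epithelium, 6.35, 3.43, 5.70 and 0.405 CPM. The combined library was the lowest of the 4 for both Krt14 and Krt17 and the highest for Krt5 and Krt15. The log2 differences with BPA were -1.96 (SE 0.57, edgeR adjusted p = 0.222) for Krt14 and -2.11 (SE 0.75, edgeR adjusted p = 0.314) for Krt17. They rest largely on the combined library: without it they were -0.51 (Krt14) and -0.91 (Krt17), and without the BPA library -3.74 and -3.89. Fits with 1 library left out had no KRG term. Without the BPA library, the combined library alone stood for BPA, so those values also carry KRG.

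The ratio of Krt14 to Krt5 counts in uterus was therefore 0.704, 0.380, 0.574 and 0.0367, and that of Krt15 to Krt14 was 6.04, 18.7, 14.8 and 315. The combined library held far less Krt14 per Krt5 than the other uteri, while its Krt5 level of 92.0 CPM was the highest of the 4. With 1 library per treatment this has no replicate check.

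Mucosal keratins, which pair as Krt4 and Krt13 in the suprabasal layers of moist stratified epithelia, were low. Krt4 gave 5.45, 5.61, 1.23 and 12.7 CPM, Krt13 1.49, 0.875, 1.39 and 0.338 CPM, and Krt78 0.672, 1.75, 1.23 and 3.31 CPM. Krt4 was highest and Krt13 lowest in the combined library, so the pair was not high in the same library. None passed edgeR's test with BPA, with log2 differences of 1.502 (adjusted p = 0.503), -1.38 (adjusted p = 0.464) and 1.33 (adjusted p = 0.362). Krt12 gave 3.29, 10.4, 5.93 and 10.6 CPM and a log2 difference of 1.17 (edgeR adjusted p = 0.229). Krt10, Krt23 and Krt79 gave differences of 0.49, 0.06 and 0.02, with edgeR adjusted p of 0.447, 0.960 and 0.994.

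By the rule of a 2-fold difference on the log2(CPM + 1) scale, which understates low genes, 4 of the 16 keratins (Krt7, Krt8, Krt12 and Krt20) were higher in BPA than in control, against 3.88% of all genes, and 0 were lower, against 3.01%. In the pair combined against KRG, 7 (Krt4, Krt7, Krt8, Krt15, Krt18, Krt19 and Krt20) were higher, against 8.36%, and Krt14 and Krt17 lower, against 5.89%. No test stands behind these pairs of single libraries. Krt7, Krt8 and Krt20 were 2-fold higher in both pairs, which share no library. The share of all genes 2-fold higher in both pairs was not counted.

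Marker lists of other epithelia are set beside these keratins in uterus. The urothelial list (8 genes) had 4 called higher with BPA by edgeR (Upk1a, Upk1b, Upk2 and Gata3), a median log2 difference of 5.32 and no member at 0. Upk1a, a uroplakin of the umbrella cell plaque, gave 91.3, 1693, 43.3 and 3174 CPM (log2 difference 5.14, edgeR adjusted p = 0.0194). Upk3a gave 67.8, 1279, 7.08 and 2688 CPM, the same order of libraries as Krt20, and did not pass (log2 difference 6.26, edgeR adjusted p = 0.0795). Psca, a surface antigen high in urothelium, gave 145, 2334, 12.2 and 3454 CPM (edgeR adjusted p = 0.0799). The part of urothelial RNA in the levels of Krt7, Krt20 and the other keratins was not tested.

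The squamous list without keratins (13 genes) summed to 365, 845, 222 and 1338 CPM. Of the 9 tested, 0 were higher and 1 lower with BPA in edgeR's test, with a median log2 difference of 0.85, 5 estimates above 0 and 4 below. The 1 lower was Lgals7, a galectin of stratified epithelium, at 63.8, 19.1, 40.5 and 6.96 CPM (log2 difference -2.19, edgeR adjusted p = 0.0300). Calml3, a calmodulin-like protein of the same epithelia, gave 92.9, 45.8, 71.8 and 9.73 CPM (log2 difference -1.99, edgeR adjusted p = 0.147). Both share with Krt14 and Krt17 their highest value in control and their lowest in the combined library, and they were picked from the list after their values were seen. Other members were highest in the combined library. Ivl, a precursor of the cornified envelope, gave 10.5, 322, 0.924 and 620 CPM (log2 difference 6.68, edgeR adjusted p = 0.0538), and Sfn, stratifin of stratified epithelia, gave 143, 395, 61.2 and 644 CPM (log2 difference 2.37, edgeR adjusted p = 0.0925). Trp63, the transcription factor of basal stratified and urothelial cells, gave 6.80, 17.1, 3.77 and 25.4 CPM, higher in both uteri given BPA, as Krt15 was. Krt5 differed little between control and BPA (86.1 and 88.4 CPM), and Krt14 and Krt17 were lowest in the combined library.

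Uterine gland and surface epithelium genes (12) summed to 1244, 455, 495 and 435 CPM, with 0 higher and 2 lower with BPA (Spdef and Foxa2) and a median of -0.67. The control stood above the other 3 uteri in this sum, whereas Krt8 and Krt18 were highest in the uteri given BPA. Ltf alone gave 811, 122, 212 and 82.0 CPM, so most of the gap in this sum came from 1 gene. The broader list of simple and glandular epithelium (12 genes) summed to 4449, 4069, 2707 and 4540 CPM with 1 called higher (Cldn4). Its median log2 difference with BPA was 0.64, with 9 estimates above 0 and 3 below. Wfdc2 alone gave 2511, 1595, 1421 and 1741 CPM, so the order of this sum leans on that gene. The part of the genes of these lists in the keratin levels was not tested.

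Genes that keratins work with had smaller median differences. Desmosome and plakin genes (15), which anchor keratin filaments at cell contacts, summed to 1161, 1327, 979 and 1689 CPM, with 0 of 13 tested called and a median of 0.35. Epithelial transcription factors (12) had 0 called and a median of 0.65. Other intermediate filament genes (11), relatives of keratins that here include the lamins Lmna and Lmnb1, summed to 880, 1201, 923 and 1694 CPM. Of the 10 tested 0 were called, with a median of 0.11. Des alone gave 352, 485, 444 and 1028 CPM, highest in the combined uterus, which also stood out in skeletal muscle genes. The part of muscle RNA in this sum was not tested.

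**Figure D4:**
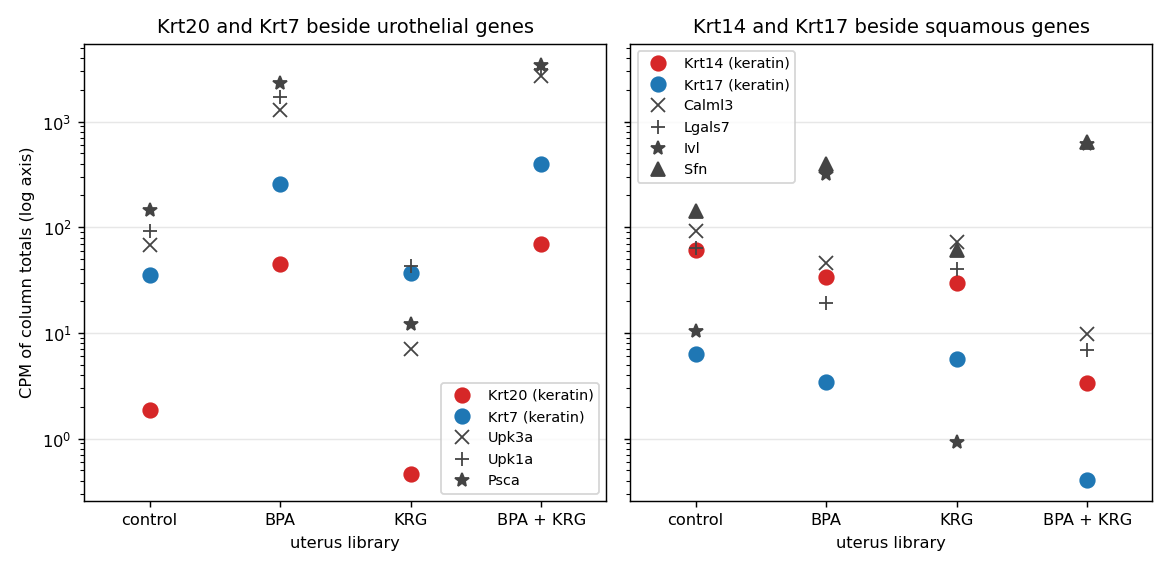
Level (CPM, log axis) in the 4 uterus libraries of Krt20 and Krt7 with Upk3a, Upk1a and Psca (left panel) and of Krt14 and Krt17 with Calml3 and Lgals7 (right panel, with Ivl and Sfn of the same squamous list), 1 point per gene and library. Every gene of the left panel is higher in both libraries with BPA than in both without, whereas in the right panel Krt14, Krt17, Calml3 and Lgals7 are lowest and Ivl and Sfn highest in the combined library.

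The third comparison asked what KRG did. In uterus edgeR called 0 keratins and 0 of 14166 genes (0% in each direction), while 634 genes had an unadjusted p under 0.05 and DESeq2 called 12 genes higher and 13 lower. Among the keratins Krt15 (log2 difference 0.62) and Krt14 (-1.97) were under 0.05 unadjusted in edgeR's test, and DESeq2 called 0. Both libraries with KRG lay above both without it for Krt79, as for 8.17% of all genes, and below for Krt14, as for 22.0%.

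By the 2-fold rule, KRG against control had Krt79 higher and Krt4 and Krt14 lower, against 2.60% and 2.58% of all genes. Combined against BPA had Krt4 higher and Krt14 and Krt17 lower, against 1.67% and 3.01%. Krt4 was thus lower in the first pair and higher in the other. Krt7 and Krt20 were not among them: with both agents they stood at 398 and 69.2 CPM, above their 257 and 44.9 CPM with BPA alone. Krt20 was lower in KRG than in control on CPM (6 against 25 counts, 0.247-fold, 0.083 to 0.617). It fell just short of the rule on the log2(CPM + 1) scale (-0.972).

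In liver 4 keratins were tested in each fit. For BPA edgeR called 0 of them, and 0 higher and 2 lower (0.0174%) of 11473 genes, while 595 genes and 0 keratins had an unadjusted p under 0.05 and DESeq2 called 12 genes higher and 18 lower. For KRG it called 0 of them, and 2 higher (0.0174%) and 0 lower genes, while 359 genes had an unadjusted p under 0.05 and DESeq2 called 12 genes higher and 32 lower. Krt8, at 60.7, 57.5, 54.3 and 53.9 CPM, had log2 differences of -0.02 with BPA and -0.19 with KRG. Krt18, at 138, 158, 113 and 135 CPM, had 0.25 with BPA and -0.31 (SE 0.16) with KRG. Both were lower in the 2 livers with KRG than in the 2 without, an order that 9.94% of all genes had.

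Krt19, which marks bile duct cells in liver, had 40, 19, 42 and 17 counts in the 4 livers. Its levels of 2.62, 1.46, 2.88 and 1.37 CPM were lower in both livers given BPA, as for 19.1% of all genes. BPA against control was 0.560-fold (0.306 to 0.990) and combined against KRG 0.477-fold (0.255 to 0.857), and the fitted log2 difference was -0.93 (SE 0.44, edgeR adjusted p = 0.891). Krt10 gave 5.23, 2.00, 5.96 and 5.50 CPM, low in the BPA liver alone, and both livers with KRG lay above both without, as for 18.5% of all genes. By the 2-fold rule Krt10 was the 1 keratin lower in BPA than in control (0.383-fold, 0.236 to 0.603, against 3.76% of all genes) and the 1 higher in combined than in BPA (against 3.09%). The other counts of liver keratins past 2-fold were 0. Of all genes, 1.40% were higher in BPA than in control and 1.51% lower in combined than in BPA, 1.38% were higher and 1.39% lower in KRG than in control, and 1.85% were higher and 1.84% lower in combined than in KRG. The BPA liver is the library with 1037 CPM of acinar pancreas genes, and their part in the Krt10 level was not tested.

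Whether keratin differences with BPA were unequal between the 2 tissues was asked with a tissue by BPA term over the 8 libraries. EdgeR called 0 of 14 keratins, where 0.384% of 13790 genes were called higher in uterus and 1.62% lower. Under 0.05 unadjusted were 6 keratins, all higher, among 1525 genes in either direction. Krt5, Krt12 and Krt14 had 0 liver counts, so this term and that for KRG could not be estimated for them. Krt20 had 1 liver count, and Krt4 and Krt17 had 2 each. Krt15, among the 6, had 5 liver counts, all in the KRG library. DESeq2 called 2 keratins, Krt8 and Krt19, among 150 genes higher and 329 lower, and edgeR called Krt19 without the control uterus or without the BPA uterus. Krt19 had the lowest adjusted p among the simple keratins, with a log2 difference between tissues of 2.19 (SE 0.48, edgeR adjusted p = 0.124), Krt8 had 1.40 (SE 0.32, edgeR adjusted p = 0.141) and Krt18 0.90 (SE 0.30, edgeR adjusted p = 0.352). The tissue by KRG term called 0 keratins and 0 genes in edgeR's test, while 666 genes and 2 keratins were under 0.05 unadjusted and DESeq2 called 29 genes higher and 2 lower.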

How the data were processed

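Each library's deposited file lists unnormalized counts for every gene symbol. Per the submitters' processing notes, Bowtie2, edgeR and mm10 were used, with no versions or roles. How reads were counted, whether by strand, and what became of multi-mapping reads is not given in the sources used here. Per the labels' protocols, RNA was taken with Trizol and 500 ng of it entered each QuantSeq library. Of the rows 44 repeat a symbol and were kept, and 0 were blank. Rn45s took 8.30% to 12.4% of the counts and stayed in the totals.

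Keratins were found by symbol, grouped into classes, and named where the mean of either tissue's 4 libraries reached 1 CPM. The members, classes and gene lists were chosen with earlier results of these data known. Counts were scaled by TMM and tested with edgeR 4.0.16 in R 4.3.3 (quasi-likelihood, Benjamini-Hochberg over all genes whose mean reached 1 CPM, called under 0.05). The tissue fit had treatment as a term, and treatment fits used the 4 libraries of a tissue with the other agent as a term. Where 1 library was left out of a treatment fit, the term for the other agent was dropped. Other libraries of the same tissue stand in for replicates, so p-values measure the spread between single libraries after an additive fit, and any interaction counts as error. EdgeR draws each gene's spread towards that of other genes. With 1 residual degree of freedom, the p-values of the treatment fits thus rest largely on the spread of other genes. The SE is the log2 difference divided by the square root of F. Pairs of libraries were compared by the ratio of CPM with exact Clopper-Pearson 95% intervals, which cover counting error only, and the labels name no molecular identifiers, so reads may not be independent molecules. Alternatives were DESeq2 1.42.0 size factors and Wald test, column totals, a minimum of 10 CPM, no filter, other pseudocounts (0.25 and 5 CPM against 1), TMM in the pairs, no treatment term, and leaving out each library. The tissue by treatment terms were added after seeing the data. Scripts were tested on simulated data. Promoters came from RefSeq (GRCm38.p6) and coordinates from GENCODE M21, matched by symbol.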

Additional observations from a re-analysis of the deposited data

How the results depend on the processing

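No paired analysis was possible because the labels give no replicate numbers and no group has more than 1 library, but the tissue fit compared liver and uterus within each treatment, and without the treatment term 13 keratins were higher in uterus instead of 12. The count of keratins higher in uterus than liver ran from 11 to 13 when each library was left out. With BPA in uterus the number higher was 2, but 4 with no filter and 6 by DESeq2's test, and 2 to 4 when each library was left out. The number lower was 0, but 1 by DESeq2's test and 0 to 2 when each library was left out. For tissue by BPA, 0 became 2 by DESeq2's test and ran from 0 to 1 with each library left out. Krt8 changed sign between tissues: -0.0445 with DESeq2's size factors, -0.0450 with its test, and -0.08, -0.38, -0.09 and -0.37 without the BPA liver, combined liver, BPA uterus and combined uterus, in a range of -0.38 to 0.26 over the libraries left out. With BPA in uterus, fits with 1 library left out had no KRG term. Krt23 then became -0.24 without the combined library (range to 0.36). Krt79 became -0.88, -0.02 and -0.44 without the control, BPA and combined libraries (range to 1.12). The causes were not tested.

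Counts of keratins past 2-fold were small and moved with the pseudocount and the filter. In uterus, combined against KRG lower went from 2 to 1 with a pseudocount of 5 or a minimum of 10 CPM. KRG against control higher went from 1 to 0 under both, and lower from 2 to 0 with a pseudocount of 5 and to 1 with TMM or the minimum of 10 CPM. Combined against BPA went from 1 to 0 higher and from 2 to 1 lower under both. In liver, BPA against control lower and combined against BPA higher each went from 1 to 0 with TMM, a pseudocount of 5 or the minimum of 10 CPM. The 32 keratins under 1 CPM in both tissues rest on few counts and were not tested. Some still stood apart between tissues, such as Krt36 with 48 uterus counts and 0 in liver (at least 16.1-fold higher).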
